A study of Homo sapiens with 12 samples.

Results

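The chromobox genes CBX1, CBX2, CBX3, CBX5, CBX6, CBX7 and CBX8 were followed in Hep-G2 and BE(2)-C cells depleted of the RNA-binding protein IGF2BP1, 7 genes of the 58174 listed for both cell lines. The family was chosen from these data, because the CBX6 level fell strongly in BE(2)-C upon knockdown. The BE(2)-C values of all 7 genes are therefore given as a description with no test, whereas the Hep-G2 libraries, which that reason does not name, were tested. Other CBX genes were not analysed here.

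Hep-G2 derives from a hepatoblastoma, a childhood liver tumor, and BE(2)-C from a neuroblastoma. Each cell line was transfected for 72 h with a control siRNA (siC, the worm microRNA sequence cel-miR-239b) or with a pool of siRNAs directed against IGF2BP1 (siI1), at 15 nM for the Hep-G2 and 25 nM for the BE(2)-C cells. RNA-seq of poly-A-enriched RNA was performed on 3 libraries per siRNA and cell line, giving 4 groups and 12 libraries. The reads assigned to genes ranged from 12852988 to 15721210 over the libraries, with a median of 13896544. Levels are FPKM, reads scaled to gene length and to a library size, which lay between 96.6% and 102% of the counted reads. A log2 fold change is the mean of log2(FPKM + 0.1) in siI1 minus that in siC, so negative values mean less RNA after knockdown. Genes that reached 0.1 FPKM in 3 or more of a cell line's 6 libraries passed the filter and were tested there with limma, which gives a standard error (SE) and a p-value, adjusted over all tested genes to control the share of false calls. A gene with an adjusted p below 0.05 is called lower or higher. The methods speak of biological replicates but nothing in the sample labels says whether the 3 libraries of a group came from separate cultures, so p-values measure the spread between these libraries, which may be technical. Each cell line was also a single culture model, and bulk RNA does not separate fewer cells with a transcript from less transcript per cell.

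Chromobox proteins read methylated histone H3 and bring silencing complexes to chromatin. CBX5, CBX1 and CBX3 encode the heterochromatin proteins HP1 alpha, beta and gamma, which bind H3 methylated at lysine 9 and help to compact constitutive heterochromatin. CBX2, CBX6, CBX7 and CBX8 encode Polycomb subunits of the canonical Polycomb repressive complex 1 (PRC1), which binds H3 methylated at lysine 27, the mark set by PRC2. Which Polycomb CBX protein a cell uses changes with its identity, and CBX7 is best known from stem cells.

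The GENCODE annotation on hg38 places the HP1 genes CBX5 (ENSG00000094916) at chr12:54230942-54280133 on the minus strand, CBX1 (ENSG00000108468) at chr17:48070052-48101478 on the minus strand and CBX3 (ENSG00000122565) at chr7:26201162-26213607 on the plus strand. Of the Polycomb genes, CBX2 (ENSG00000173894) lies at chr17:79778148-79787983 on the plus strand and CBX8 (ENSG00000141570) close by at chr17:79792132-79801683 on the minus strand. CBX6 (ENSG00000183741) lies at chr22:38861422-38872249 and CBX7 (ENSG00000100307) at chr22:39120167-39152680, both on the minus strand.

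IGF2BP1 binds many mRNAs in their 3'UTR, where the microRNA let-7 can also pair, so the longest annotated 3'UTR of each gene was searched on the transcript strand for CTACCTC, the match to the let-7 seed. The mature let-7a-5p, 22 nt long and encoded among other loci by MIRLET7A1 at chr9:94175962-94175983 on the plus strand (RefSeq, GRCh38.p14), is shown with its seed, bases 2 to 8, in capitals, above the 2 matches in the CBX5 3'UTR, with the match in capitals.
hsa-let-7a-5p: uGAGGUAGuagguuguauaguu
CBX5 match 1: gattttaatCTACCTCatcttgt
CBX5 match 2: aatactgacCTACCTCacagggg
The CBX5 matches lie each within a single exon, in the 10813 nt long 3'UTR, at chr12:54234974-54234996 and chr12:54232440-54232462 on the minus strand of hg38. CBX2 held 1 such match and the other 5 CBX genes, CBX6 included, held 0, while 10.6% of 19248 genes with an annotated 3'UTR held at least 1. A match is a string of letters and was not tested as a site.

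CBX6 held 2 copies of another 7-mer, CAGGTGT, which an earlier pass over these data had picked out and which is therefore no independent evidence. Both copies are shown with the 7-mer in capitals.
CBX6 copy 1: ctcctggccCAGGTGTgctgggg
CBX6 copy 2: tgccagttaCAGGTGTttccaga
They lie in the 4787 nt long 3'UTR of CBX6, at chr22:38865256-38865278 and chr22:38864370-38864392 on the minus strand of hg38. CBX7 also held 2 copies and CBX5 held 3, and 3.93% of the 19248 genes held 2 or more. Among Hep-G2 values, the median log2 fold change was -0.02 for 10294 tested protein-coding genes without the 7-mer and -0.21 for 588 genes with 2 or more copies, whose median 3'UTR was 4561 nt long against 1124 nt. The 7-mers that CBX6 lacks went with similar or lower Hep-G2 medians, -0.21 for 183 genes with 2 or more copies of CTACCTC and -0.36 for 196 genes with 2 or more copies of GCCATTC, and these genes also had long 3'UTRs (medians 4943 and 5114 nt). Among BE(2)-C values, the medians for CAGGTGT were -0.01 for 10051 genes without it and -0.02 for 603 genes with 2 or more copies, and thus nearly equal. For 2 or more copies of CTACCTC the BE(2)-C median was 0.09, against -0.02 without a copy, opposite in sign to Hep-G2, and for GCCATTC it was -0.02 against -0.01. Another 7-mer of the same origin, GCCATTC, occurred once each in CBX5 and CBX3 and was absent from CBX6. Whether any of these 7-mers bears on CBX6 was not tested.

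The libraries carried the markers of their cell lines. In Hep-G2, all 6 liver markers (ALB, AFP, APOA1, TF, SERPINA1 and TTR) exceeded 1 FPKM in every library, led by ALB, with summed levels from 7095 to 7211 FPKM in siC and from 12260 to 14170 FPKM in siI1. The 6 neuroblastoma markers (MYCN, HAND2, TH, DBH, ISL1 and GATA3) summed to at most 0.269 FPKM in any Hep-G2 library, with HAND2 and ISL1 at 0 in all of them. Every BE(2)-C library had all 6 neuroblastoma markers above 1 FPKM, led by MYCN at a mean of 1778 FPKM, and the liver markers summed to at most 0.228 FPKM, with AFP at 0. Of the liver markers in Hep-G2, 4 rose and 2 fell upon knockdown in limma. Of the neuroblastoma markers in BE(2)-C, HAND2 (log2 fold change -0.73, limma adjusted p = 1.7e-04) and DBH (-0.37, limma adjusted p = 0.013) fell and TH rose (0.61, limma adjusted p = 0.0037). The part of these shifts in the CBX results was not tested beyond the rescaled fits given below.

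IGF2BP1 itself was lower in all siI1 libraries. In Hep-G2, it was at 48.6, 46.6 and 50.8 FPKM in siC and at 12.6, 10.7 and 10.7 FPKM in siI1, which left 23.3% of the mean level (log2 fold change -2.10, SE 0.08, limma adjusted p = 7.8e-06). In BE(2)-C, the levels were 21.3, 20.6 and 21.6 FPKM in siC and 4.85, 4.74 and 4.87 FPKM in siI1, which left 22.8% (log2 fold change -2.11, SE 0.05, limma adjusted p = 1.5e-05). The groups did not overlap in either cell line.

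**Figure D1:**
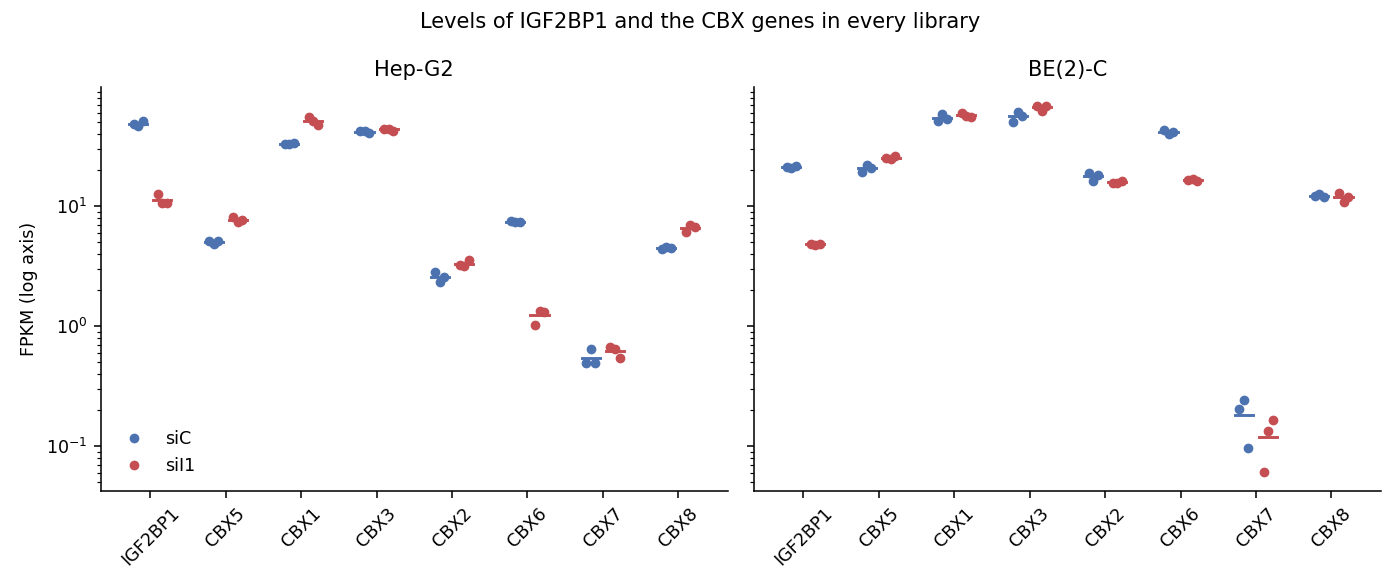
FPKM of IGF2BP1 and the 7 CBX genes in each library (dots, log axis) with the mean of 3 libraries (bars), for siC (blue) and siI1 (red) in Hep-G2 (left) and BE(2)-C (right). CBX6 lies near 7.4 FPKM in Hep-G2 siC and between 1.03 and 1.33 FPKM in siI1, and CBX7 is the lowest gene of the family in both cell lines.

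Without knockdown, the HP1 genes CBX3 and CBX1 were the most abundant members in both cell lines. In Hep-G2 siC, the order was CBX3 (41.8 ± 0.738 FPKM, SD, n = 3), CBX1 (33.1 ± 0.150), CBX6 (7.38 ± 0.120), CBX5 (5.05 ± 0.174), CBX8 (4.47 ± 0.0849), CBX2 (2.58 ± 0.260) and CBX7 (0.544 ± 0.0910), and no neighbours in this order overlapped between libraries. CBX6 was thus the most abundant of the Polycomb members. The order in BE(2)-C siC began with CBX3 (55.9 ± 5.75 FPKM, SD, n = 3) and CBX1 (54.2 ± 3.83), whose libraries overlapped, followed without further overlap by CBX6 (41.5 ± 1.51), CBX5 (20.6 ± 1.48), CBX2 (17.7 ± 1.41), CBX8 (12.2 ± 0.362) and CBX7 (0.181 ± 0.0754). The tables of the cell lines were normalized separately, so these levels stand side by side without a test.

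After knockdown, the order changed mainly through CBX6. In Hep-G2 siI1, CBX6 stood in place 6 of 7, at 1.23 ± 0.169 FPKM (SD, n = 3), between CBX2 (3.32 ± 0.203) and CBX7 (0.620 ± 0.0696), and CBX1 (51.4 ± 3.73) stood above CBX3 (43.6 ± 0.909). CBX6 stood in place 4 in BE(2)-C siI1, at 16.4 ± 0.279 FPKM (SD, n = 3), below CBX5 (25.4 ± 0.674), and its libraries overlapped those of CBX2 (15.8 ± 0.278).

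The question in Hep-G2 was whether the family moved as CBX6 did in the cell line it was chosen on. Of the 7 members, all of which passed the filter on low values, CBX6 was lower and CBX1, CBX5, CBX8 and CBX2 were higher upon knockdown, while CBX3 and CBX7 did not pass the threshold (adjusted p below 0.05, limma). In the same fit, 23.0% of 19436 tested genes were lower and 21.9% were higher, so 1 lower member of 7 is near the background. The 4 higher members are a small number of genes against it, and nothing was tested over the family. The median log2 fold change was 0.36 over the members and 0.01 over all tested genes.

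CBX6, one of the Polycomb members, was at 7.52, 7.33 and 7.30 FPKM in Hep-G2 siC and at 1.03, 1.33 and 1.32 FPKM in siI1. All siI1 libraries lay far below all siC libraries, and 16.6% of the mean level was left. The log2 fold change was -2.50 (SE 0.12, limma adjusted p = 1.6e-05), lower in 3 of 3 siI1 libraries. It rested on 802 to 938 reads per siC library and 112 to 155 reads per siI1 library. Only 51 of 12823 tested protein-coding genes, or 0.398%, had a lower log2 fold change in Hep-G2.

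CBX1, which encodes HP1 beta, was at 33.1, 33.0 and 33.3 FPKM in Hep-G2 siC and at 55.2, 51.0 and 47.8 FPKM in siI1. Every siI1 library exceeded every siC library, and the log2 fold change was 0.63 (SE 0.06, limma adjusted p = 2.7e-04). CBX5, which encodes HP1 alpha, was at 5.15, 4.85 and 5.16 FPKM in siC and at 8.14, 7.38 and 7.67 FPKM in siI1. Its groups did not overlap either, with a log2 fold change of 0.60 (SE 0.07, limma adjusted p = 5.5e-04). CBX3, which encodes HP1 gamma, was at 42.3, 42.2 and 41.0 FPKM in siC and at 44.2, 43.96 and 42.5 FPKM in siI1. Although these groups did not overlap, the log2 fold change of 0.06 (SE 0.04, limma adjusted p = 0.33) did not pass the threshold, and its sign depended on the scaling of the libraries.

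Of the remaining Polycomb members, CBX8 was at 4.38, 4.55 and 4.48 FPKM in Hep-G2 siC and at 6.13, 6.98 and 6.70 FPKM in siI1. All siI1 libraries lay above all siC libraries (log2 fold change 0.55, SE 0.08, limma adjusted p = 0.0012). CBX2 was at 2.84, 2.32 and 2.58 FPKM in siC and at 3.25, 3.16 and 3.55 FPKM in siI1. The groups did not overlap, but the call was narrow (log2 fold change 0.36, SE 0.11, limma adjusted p = 0.035) and was lost with equal sums of FPKM (log2 fold change 0.19, limma adjusted p = 0.24). CBX2 also lost it without siC replicate 2 or 3, or without siI1 replicate 2 or 3 (limma adjusted p = 0.1, 0.089, 0.064 and 0.11). CBX7 ranged from 0.491 to 0.674 FPKM over the 6 libraries, on 54 to 70 reads, with overlapping groups (log2 fold change 0.17, SE 0.21, limma adjusted p = 0.56), and was not called.

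**Figure D2:**
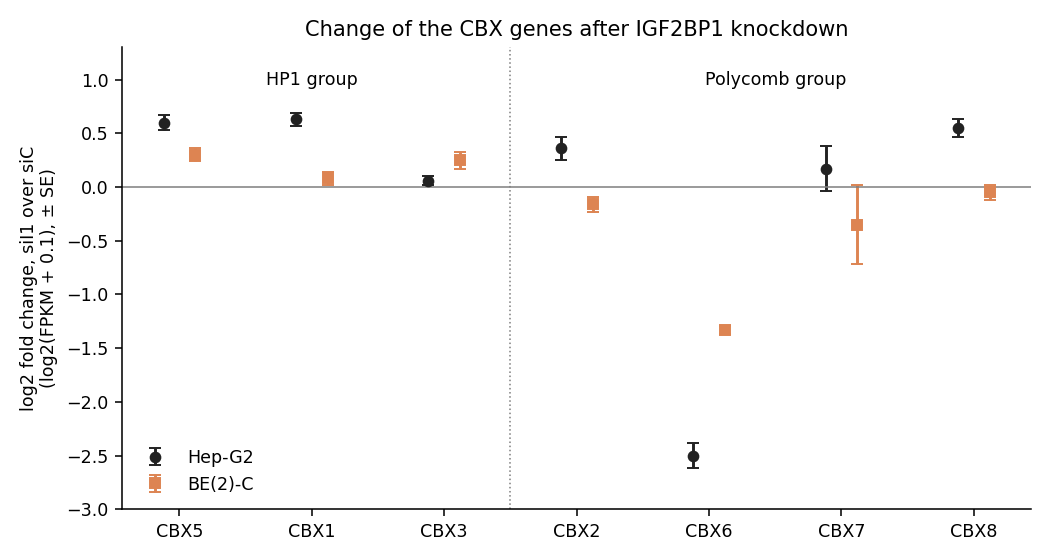
Log2 fold change of siI1 over siC (vertical axis, on log2(FPKM + 0.1), with the standard error from limma as bars) for each CBX gene in Hep-G2 (black circles) and BE(2)-C (orange squares), with HP1 genes left and Polycomb genes right of the dotted line. CBX6 lies at -2.50 for Hep-G2 and at -1.33 for BE(2)-C. The other members lie between -0.35 and 0.63, where the sign of CBX3 in Hep-G2 turned with equal sums of FPKM.

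By library overlap in Hep-G2, the siI1 libraries lay below all siC libraries for 1 member and above them for 5 members. Over all tested genes these shares were 27.8% below and 28.0% above.

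In BE(2)-C, the contrast that chose the family, CBX6 was at 42.8, 39.9 and 41.7 FPKM in siC and at 16.4, 16.7 and 16.1 FPKM in siI1. This left 39.6% of the mean level, a log2 fold change of -1.33 (SE 0.04), and 80 of 12600 tested protein-coding genes had a lower value. CBX5 was at 19.1, 22.1 and 20.6 FPKM in siC and at 25.1, 24.9 and 26.2 FPKM in siI1, and CBX3 at 49.9, 61.3 and 56.5 FPKM in siC and 68.8, 62.3 and 68.4 FPKM in siI1. For both of these HP1 genes the siI1 libraries lay above the siC libraries, with log2 fold changes of 0.30 (SE 0.06) and 0.25 (SE 0.08). The other HP1 gene, CBX1, had overlapping groups and a log2 fold change of 0.08 (SE 0.06). CBX2 (-0.16, SE 0.07), CBX8 (-0.05, SE 0.07) and CBX7 (-0.35, SE 0.37) had overlapping groups as well, and CBX7 had only 7 to 23 reads per library. The siI1 libraries lay below all siC libraries for 1 member and above them for 2, beside 22.4% and 22.6% of all tested genes, and nothing is read from these counts. Calls are not counted for the members there, and over all 18656 tested genes 14.8% were lower and 13.3% higher.

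The log2 fold change of CBX6 was larger in Hep-G2 than in BE(2)-C, where the control level was also higher, and the difference between the cell lines was not tested.

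Since CBX6 was the most abundant Polycomb member in both control groups, the makeup of the family shifted with it. In Hep-G2, CBX6 made up 49.3% ± 0.104 (SD, n = 3) of the summed FPKM of the 4 Polycomb members in siC and 10.4% ± 0.939 in siI1. Its share in BE(2)-C was 57.9% ± 0.0176 (SD, n = 3) in siC and 37.1% ± 1.26 in siI1. The summed Polycomb level was 14.98 ± 0.225 FPKM in Hep-G2 siC and 11.8 ± 0.595 FPKM in siI1 (SD, n = 3). The summed HP1 level moved the other way, from 80.01 ± 0.552 FPKM in siC to 102.7 ± 4.79 FPKM in siI1 (SD, n = 3). The Polycomb sum in BE(2)-C was 71.6 ± 2.59 FPKM in siC and 44.2 ± 0.961 FPKM in siI1, and the HP1 sum 130.7 ± 10.9 FPKM in siC and 149 ± 5.06 FPKM in siI1 (SD, n = 3). These sums follow from the members' levels and were not tested.

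**Figure D3:**
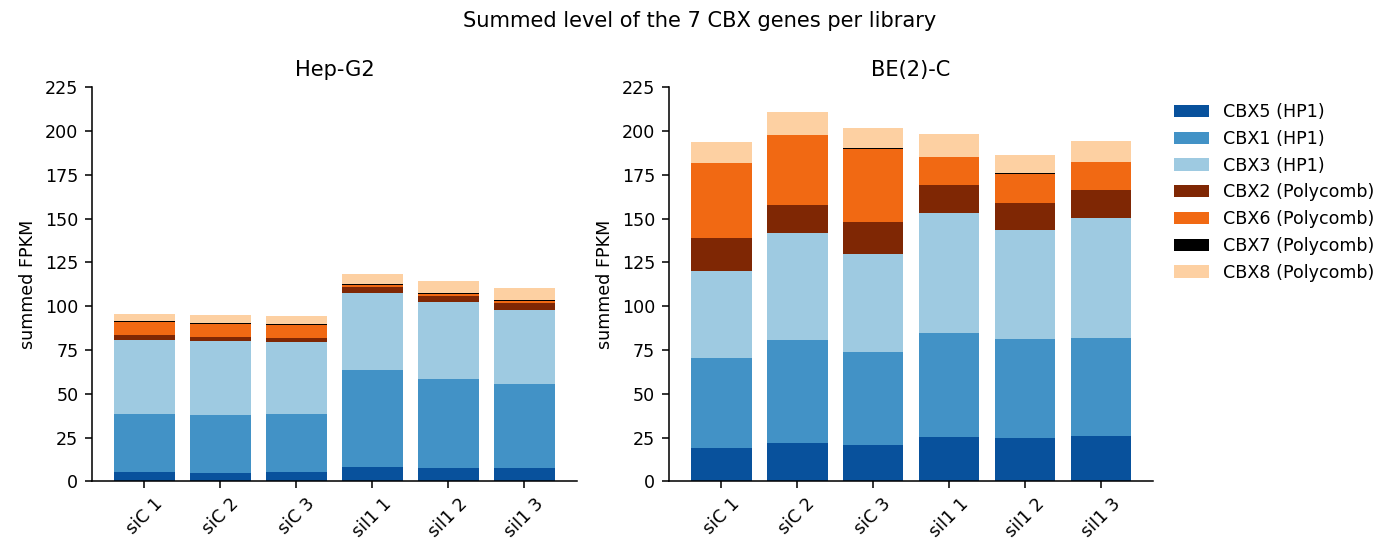
Summed FPKM of the 7 CBX genes in each library (stacked bars from 0) in Hep-G2 (left) and BE(2)-C (right), with HP1 genes in blues and Polycomb genes in oranges, brown and black. The CBX6 segment shrinks in all siI1 libraries, from about 49.3% to 10.4% of the Polycomb sum in Hep-G2 and from 57.9% to 37.1% in BE(2)-C.

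Genes that work with the CBX proteins were read from lists of complexes. Among other PRC1 genes, 8 of 20 tested were lower in Hep-G2 and 2 higher (23.0% and 21.9% over all tested genes), with a median log2 fold change of -0.14. PHC2, a Polyhomeotic subunit of canonical PRC1, fell from 28.4 ± 0.852 to 13.4 ± 0.396 FPKM (SD, n = 3; log2 fold change -1.07, limma adjusted p = 1.6e-05). SCML1, a gene of the Sex comb on midleg family, fell with a log2 fold change of -1.45 (limma adjusted p = 1.3e-04). The related SCMH1 rose (0.68, limma adjusted p = 3.9e-04), as did PCGF6, a subunit of a variant PRC1 (0.38, limma adjusted p = 0.033), but PCGF6 lost its call in 7 of 15 alternative fits. Of 21 PRC1 genes tested in BE(2)-C, 4 were lower and 4 higher (14.8% and 13.3% over all tested genes), with a median of -0.04, and the alternatives gave 2 to 6 lower and 0 to 6 higher. There, SCML2 (-1.11, limma adjusted p = 7.9e-04) and SCML1 (-0.96, limma adjusted p = 0.0032) fell, and the catalytic subunit RNF2 (0.35, limma adjusted p = 0.016) and PHC3 (0.64, limma adjusted p = 0.018) rose, calls that RNF2 lost in 2 and PHC3 in 4 of 15 alternatives. Over all tested genes, the median was 0.01 for Hep-G2 and 0.02 for BE(2)-C. The PRC1 counts in Hep-G2 depended on the scaling of the libraries, with 5 lower and 4 higher under median centring and 10 lower and 1 higher under equal sums of FPKM. They also moved under other alternatives, and over all 15 lay between 5 and 10 lower and between 1 and 4 higher.

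PRC2 places the mark that the Polycomb CBX proteins read. In Hep-G2, 6 of 12 tested PRC2 genes were lower and 1 higher (23.0% and 21.9% over all tested genes), with a median log2 fold change of -0.14. The core subunit SUZ12 fell from 8.51 ± 0.900 to 3.40 ± 0.629 FPKM (SD, n = 3; log2 fold change -1.31, limma adjusted p = 4.5e-04) and the accessory subunit EPOP fell as well (-0.95, limma adjusted p = 1.4e-04). The histone-binding RBBP7 rose (0.36, limma adjusted p = 0.0038). Of the PRC2 genes in BE(2)-C, 2 of 12 were lower and 2 higher (14.8% and 13.3% over all tested genes), with a median of -0.08, and the alternatives gave 1 to 4 lower and 1 to 2 higher. PHF19 (-0.37, limma adjusted p = 0.0029) and the core subunit EED (-0.31, limma adjusted p = 0.025) fell there, and the accessory subunits AEBP2 (0.52, limma adjusted p = 0.0037) and JARID2 (0.20, limma adjusted p = 0.028) rose. EED lost its call in 4 and JARID2 in 6 of 15 alternatives.

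Of the enzymes and partners of HP1 at heterochromatin, 8 of 22 tested were lower in Hep-G2 and 1 higher (23.0% and 21.9% over all tested genes), with a median log2 fold change of -0.18. The H4 lysine 20 methyltransferase KMT5C, which HP1 recruits, was that gene and rose from 1.37 ± 0.154 to 4.70 ± 0.546 FPKM (SD, n = 3; log2 fold change 1.70, limma adjusted p = 1e-04). CHAF1A, a chromatin assembly factor that binds HP1, fell (-0.73, limma adjusted p = 6.3e-04), and so did MPHOSPH8, a reader of H3 lysine 9 methylation (-0.35, limma adjusted p = 0.0019). Of the HP1 partners in BE(2)-C, 5 of 21 were lower and 5 higher (14.8% and 13.3% over all tested genes), with a median of 0.06. CHAF1A (-0.54, limma adjusted p = 7.6e-04) and the nuclear envelope protein LBR (-0.60, limma adjusted p = 9.7e-04) fell, and ADNP (0.30, limma adjusted p = 0.0026) and CDYL (0.43, limma adjusted p = 0.0029) rose.

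Enzymes that remove the marks or act on ubiquitylated H2A formed a further list, with 6 of 15 lower and 2 higher in Hep-G2 (23.0% and 21.9% over all tested genes) and a median log2 fold change of -0.20. The alternatives gave 4 to 9 lower and 0 to 2 higher. ASXL2 (-1.51, limma adjusted p = 2.5e-04) and ASXL1 (-0.43, limma adjusted p = 0.0024), partners of the deubiquitinase BAP1, fell, and the demethylases KDM6B (0.41, limma adjusted p = 0.0065) and KDM4B (0.29, limma adjusted p = 0.027) rose, calls that KDM6B lost in 1 and KDM4B in 6 of 15 alternatives. In BE(2)-C, 1 of 15 was lower, BAP1 itself (-0.38, limma adjusted p = 0.0019), and 6 were higher (14.8% and 13.3% over all tested genes), with a median of 0.21 and 3 to 8 higher over the alternatives. KDM6B (0.44, limma adjusted p = 0.0017) and KDM4A (0.36, limma adjusted p = 0.0072) were among the latter.

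Genes that Polycomb complexes silence in many tissues, the HOX clusters and the CDKN2 locus, were mostly below the filter, with 15 of 41 tested in Hep-G2 and 16 of 41 in BE(2)-C. In Hep-G2, 4 were lower and 4 higher (23.0% and 21.9% over all tested genes), with a median log2 fold change of -0.12. The cell cycle inhibitor CDKN2B fell from 11.3 ± 0.207 to 2.22 ± 0.144 FPKM (SD, n = 3; log2 fold change -2.30, limma adjusted p = 4.8e-06), HOXD1 fell (-1.84, limma adjusted p = 8.3e-05) and HOXA3 rose (0.81, limma adjusted p = 2.1e-04). HOXC12 was listed at 0, 0.022 and 0 FPKM in siC and at 0.599, 0.494 and 0.651 FPKM in siI1, on at most 29 reads per library. It passed the filter only through its siI1 libraries, so its place among the 4 higher genes follows from the change itself, and neither a fold nor a p-value is given. Of these loci in BE(2)-C, 3 were lower and 0 higher in limma (14.8% and 13.3% over all tested genes), with a median of -0.24, and the alternatives gave 2 to 6 lower and up to 1 higher. HOXD13 (-1.78, limma adjusted p = 0.0054) and HOXC9 (-0.57, limma adjusted p = 0.0074) were among the former. The remaining gene, HOXC13, had at most 11 reads per library and passed the filter only through its siC libraries, so it is not read as a change.

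Neighbouring genes were read to see whether the CBX loci moved as a whole. NPTXR, the neuronal pentraxin receptor gene, lies 17394 nt from CBX6 on the same strand, and rose in Hep-G2 (log2 fold change 1.20, limma adjusted p = 2e-05) but fell in BE(2)-C (-0.63, limma adjusted p = 6.2e-04). APOBEC3A, on the other side of CBX6, was not tested in either cell line. HNRNPA1 starts 60 nt from the start of CBX5 on the opposite strand, and did not pass the threshold, with log2 fold changes of 0.02 (limma adjusted p = 0.78) for Hep-G2 and 0.06 (limma adjusted p = 0.54) for BE(2)-C. With equal sums of FPKM, however, HNRNPA1 in Hep-G2 stood at -0.14 and was called lower (limma adjusted p = 0.024). On the other side of CBX5, SMUG1 rose in Hep-G2 (0.46, limma adjusted p = 0.0041) and fell in BE(2)-C (-0.25, limma adjusted p = 0.034), where it lost its call in 7 of 15 alternatives.

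HNRNPA2B1 overlaps CBX3 on the opposite strand. It fell in Hep-G2 (log2 fold change -0.27, limma adjusted p = 0.0039) and had a log2 fold change of -0.12 in BE(2)-C (limma adjusted p = 0.25). The libraries were strand-specific according to the methods, but whether the read counting used the strand is not given there, so CBX3 is uncertain where it overlaps HNRNPA2B1. The other neighbours of CBX3, NFE2L3 (-1.63, limma adjusted p = 2.6e-05) and SNX10 (-0.31, limma adjusted p = 0.043), fell in Hep-G2 and were not tested in BE(2)-C, and SNX10 lost its call in 7 of 15 alternatives. Next to CBX1, SNX11 fell in Hep-G2 (-0.41, limma adjusted p = 0.0019) and in BE(2)-C (-0.53, limma adjusted p = 0.0021). NFE2L1 was at -0.04 in Hep-G2 (limma adjusted p = 0.48) and fell in BE(2)-C (-0.23, limma adjusted p = 0.0079), a call lost without the mean-variance trend. Over the alternatives, NFE2L1 in Hep-G2 ranged from -0.21 to 0.05 and was called lower in 1 of them (limma adjusted p = 0.02). Around CBX7 in Hep-G2, PDGFB fell (-0.63, limma adjusted p = 0.005) and APOBEC3H was listed at 0 in siC and at a mean of 0.325 FPKM in siI1. APOBEC3H passed the filter only through its siI1 libraries, so it is not read as a change. The nearest protein-coding genes beside CBX2 and CBX8 that are no CBX genes were ENPP7, at 0.10 in Hep-G2 (limma adjusted p = 0.76), and TBC1D16, which rose in Hep-G2 (0.18, limma adjusted p = 0.033) and was at 0.05 in BE(2)-C (limma adjusted p = 0.7). The Hep-G2 call of TBC1D16 was lost in 7 of 15 alternatives, with log2 fold changes from 0.02 to 0.28.

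The tables list 15 pseudogenes of the 7 genes, copies that could share reads with CBX1, CBX3 or CBX5. Of these, 10 were at 0 in all Hep-G2 libraries and 12 in all BE(2)-C libraries. CBX3P9 alone reached 10 reads in a Hep-G2 or a BE(2)-C library, with 1.93 ± 0.249 FPKM in Hep-G2 siC and 2.07 ± 0.232 FPKM in BE(2)-C siC (SD, n = 3), and its log2 fold changes of -0.25 (limma adjusted p = 0.44) and 0.35 (limma adjusted p = 0.25) did not pass the threshold.

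The genes nearest to CBX6 by their pair of log2 fold changes were sought among 8694 other protein-coding genes with a mean of at least 1 FPKM in both cell lines, by Euclidean distance. MT2A, a metallothionein, came first at a distance of 0.09, with log2 fold changes of -2.48 (SE 0.11) in Hep-G2 and -1.41 (SE 0.09) in BE(2)-C. CCDC6 (-2.51 and -1.15), RIN1 (-2.31 and -1.33), BZW2 (-2.47 and -1.08) and C5orf15 (-2.26 and -1.13) followed, at distances from 0.19 to 0.31. These places depended on the pseudocount. With 1 FPKM added in place of 0.1 FPKM, an alternative chosen after seeing the data, CBX6 was at -1.92 in Hep-G2 and at -1.29 in BE(2)-C, HDLBP came first at a distance of 0.12 (-1.87 and -1.18) and C5orf15 and BZW2 in places 4 and 5. CCDC6 then stood in place 8, MT2A in place 14 at a distance of 0.56 and RIN1 in place 41 at 0.78. Likeness over a single pair of values says nothing of shared control.

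**Figure D4:**
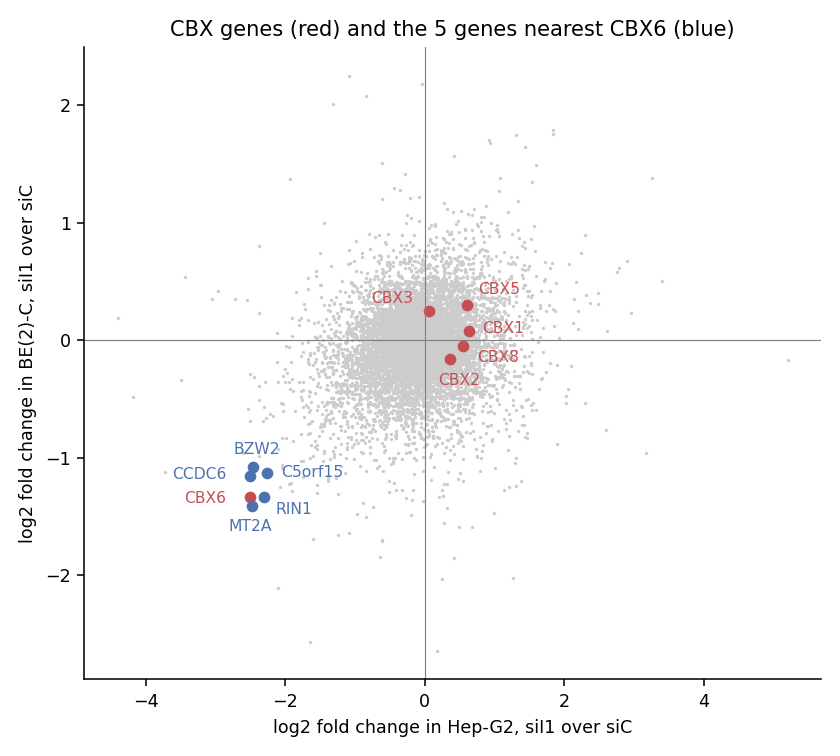
Log2 fold change of siI1 over siC in Hep-G2 (horizontal axis) and BE(2)-C (vertical axis) for CBX6 and 8694 other protein-coding genes with a mean of at least 1 FPKM in both cell lines (grey dots), with CBX genes in red and the 5 genes nearest CBX6 in blue. CBX6, at -2.50 and -1.33, lies apart from the other CBX genes shown, and CBX7 is absent because its mean is below 1 FPKM.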

How the data were processed

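The authors clipped reads with cutadapt 1.14, aligned them to hg38 with HISAT2 2.1.0 (SAMtools 1.5), counted them per gene with featureCounts 1.5.3 and tested with edgeR 3.30.3, per the submitters' processing notes. The authors deposited, for each cell line, FPKM values per gene and library beside fold changes, p-values and FDR values of their own, which were not used. FPKM times gene length, divided by 1 factor per library that was fitted to the smallest values, gave whole reads (within 0.1 read) for 100% of nonzero values.

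Genes with at least 0.1 FPKM in at least 3 of 6 libraries were compared per cell line on log2(FPKM + 0.1), which understates changes of low genes, with limma 3.58.1 in R 4.3.3 (mean-variance trend, Benjamini-Hochberg over all tested genes, threshold 0.05). An exact permutation test of 3 against 3 libraries cannot go below p = 0.1 (two-sided), so none was used. Named genes were IGF2BP1, the CBX genes, the 2 smallest p-values per list, direction and cell line, CBX neighbours and pseudogenes, and the 5 genes nearest CBX6. Members and lists were chosen with earlier results of these data known. The fit was tested on simulated data. A first pass mark for that test, on the share of the shifts built into those data that was called, was missed at 1 fold size in Hep-G2 and was then replaced by one on the bias of the estimates, and false calls among the simulated calls exceeded the nominal threshold, so counts of calls may hold more false ones than the threshold states. Alternatives changed the pseudocount, filter, scaling, trend, test (voom), replicate block and libraries. 3'UTRs were the longest per gene in GENCODE v44.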

Additional observations from a re-analysis of the deposited data

Results flagged for a closer look

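The compared set held IGF2BP1, the CBX genes, the 5 genes nearest CBX6, and the listed and neighbouring genes. Of its 93 genes tested in both cell lines, 16 (17.2%) lay on opposite sides without overlap, against 11.3% of all 15362 such genes. IGF2BP1, the knockdown target, and the genes nearest CBX6, picked by their falls, could not be such cases, so the shares are not compared. Of the 16, 7 are named in the results. For these, every siI1 library lay on one side of the siC libraries in Hep-G2 and on the other side in BE(2)-C, and the difference was not tested for any of them. NPTXR, beside CBX6, rose by 1.20 on the log2 scale in Hep-G2 and stood at -0.63 in BE(2)-C, while SMUG1, beside CBX5, was at 0.46 and -0.25. In the opposite sense, the PRC1 subunits PHC3 and RNF2 were at -0.54 and -0.34 for Hep-G2, against 0.64 and 0.35 for BE(2)-C. The PRC1 genes BMI1, PCGF3 and PCGF5 lay in the same sense, although PCGF3 was not called in BE(2)-C (limma adjusted p = 0.053). RING1 (0.51 and -0.32) and PHC1 (0.30 and -0.23) lay the other way but were called in neither cell line. Their limma adjusted p was 0.057 and 0.059 for RING1, and 0.078 and 0.059 for PHC1. A common direction of PRC1 was not tested. The PRC2 subunit JARID2 was at -0.29 and 0.20, and the heterochromatin factors MPHOSPH8 and ADNP at -0.35 and -0.11 for Hep-G2, against 0.38 and 0.30 for BE(2)-C. The Hep-G2 calls of PHC3, RNF2 and JARID2 were lost in 8, 6 and 8 of 15 alternatives, and ADNP was not called there (limma adjusted p = 0.12), with values from -0.27 to -0.01 over the alternatives and a call as lower in 1 of them, with equal sums of FPKM (limma adjusted p = 0.014). In BE(2)-C, MPHOSPH8 lost its call in 4. The CBX genes themselves gave no such case.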

How the results depend on the processing

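CBX6, CBX1, CBX5 and CBX8 kept their direction and their call in Hep-G2 under all 15 alternatives, with log2 fold changes from -2.66 to -1.92, 0.46 to 0.72, 0.44 to 0.69 and 0.39 to 0.64 (adjusted p at most 2.8e-04, 0.0048, 0.0082 and 0.0073 from limma). CBX2 lost its call with equal sums of FPKM (0.19) and without single libraries, where it lay between 0.28 and 0.43. CBX3 in Hep-G2 passed the threshold with median centring (0.15) and turned to -0.11 with equal sums of FPKM. Equal sums moved the median of all tested Hep-G2 genes from 0.01 to -0.15, so that CBX3 stayed above it, and the split of lower and higher calls from 4463 and 4250 to 5835 and 3211. With median centring the split was 3693 and 5015. The BE(2)-C split was 2763 and 2489, and with median centring 2390 and 2872. The number of genes higher in BE(2)-C lay between 1495 and 2129 without single libraries. No BE(2)-C value of a CBX gene moved by more than the combined SD of its groups, with CBX6 from -1.36 to -1.29, but CBX8 changed sign (0.02) without siI1 replicate 2. CBX7 was not tested at the filter of 1 FPKM. The cause of these shifts was not tested.

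Over further named genes, alternatives chosen after seeing the data gave 1056 values, of which 971 kept direction and side of the threshold, 78 lost the call, 2 gained it and 5 turned sign. The 971 include 11 values each of HOXC12 and APOBEC3H in Hep-G2, which passed the filter only through their siI1 libraries. Other named genes were picked by their p-values, so the tally is no measure of stability. HNRNPA1 (-0.14) and ENPP7 (-0.04) in Hep-G2 turned with equal sums, NFE2L1 in Hep-G2 (0.05) with median centring, ENPP7 in Hep-G2 (-0.00, up to 0.20 without other single libraries) without siI1 replicate 3 and TBC1D16 in BE(2)-C (-0.03, up to 0.09 likewise) without siC replicate 2. Where its sign turned, HNRNPA1 also passed the threshold as lower (limma adjusted p = 0.024). NFE2L1 in Hep-G2 gained a call as lower in 1 alternative (limma adjusted p = 0.02). Deviations of same-numbered libraries correlated at 0.06, 0.04 and -0.01 (Hep-G2) or 0.02, -0.01 and 0.00 (BE(2)-C), so the numbers were not taken as pairs, and 3 and 2 of 6 libraries correlated best with their own number. With the replicate block, the calls were 4502 lower and 4318 higher for Hep-G2, 2531 lower and 2141 higher for BE(2)-C, and no CBX call in Hep-G2 changed. CBX7 had 7 to 23 reads per library in BE(2)-C.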
